A study of Mus musculus with 8 samples.

Results

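The genes described here encode the precursors of 10 neuropeptides of cortex and striatum: somatostatin (Sst), neuropeptide Y (Npy), vasoactive intestinal peptide (Vip), cholecystokinin (Cck), tachykinin precursors 1 and 2 (Tac1 and Tac2), proenkephalin (Penk), prodynorphin (Pdyn), corticotropin-releasing hormone (Crh) and cortistatin (Cort). They were chosen by symbol, through the Ensembl identifiers of the deposited counts, and make up 10 of the 56748 genes in the table. All 10 passed the filter on low counts and were among the 21588 genes tested. Polyadenylated RNA was sequenced from pulverised frozen forebrain of TgCRND8 transgenic mice (Tg, 4 libraries) and of their non-transgenic littermates (NTg, 4 libraries), both aged 18 months and given no other treatment in the labels. TgCRND8 mice overexpress the amyloid precursor protein APP and were bred in house. As background, the line carries mutant human APP in a prion-gene vector that drives it in neurons broadly, so no peptide-making cell type is singled out by the transgene. The labels number the libraries within each genotype without saying outright that each is a separate animal, and if some are not, the p-values below measure only the spread between libraries.

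Neuropeptides are cut from larger precursors inside dense-core vesicles and act on G protein-coupled receptors, more slowly and over longer distances than the GABA or glutamate released by the same cells. In cortex and hippocampus, somatostatin, neuropeptide Y, vasoactive intestinal peptide, cortistatin and much of the corticotropin-releasing hormone are made by GABAergic interneurons. Cholecystokinin is made by an interneuron class and, at the transcript level, also by many glutamatergic cells. In the striatum, projection neurons of the direct pathway make the Tac1 peptides and dynorphins, and those of the indirect pathway make enkephalins. Somatostatin and neuropeptide Y are among the peptides long studied in Alzheimer's disease tissue and in mice that overexpress APP.

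The 8 libraries held 57798554 to 65242741 counts in Tg and 57129090 to 63153040 counts in NTg. App averaged 2851 ± 213 CPM in Tg and 1488 ± 98.4 CPM in NTg (SD, n = 4 each), where CPM is a gene's counts in 1000000 of a library size scaled by the trimmed mean of M-values, and the groups did not overlap. These are counts of the mouse gene, and how many reads of the human transgene they hold was not tested, so they do not measure the level of the transgene. Over all genes, edgeR's quasi-likelihood test called 3 at a Benjamini-Hochberg adjusted p under 0.05, which is 0.0139% of those tested. Tg replicate 1 stood apart from the other Tg libraries, with App at 2532 CPM against 2934, 2980 and 2958 CPM, and 314 genes were called without it. Transcripts of particular brain regions also varied between libraries of both genotypes, for a reason that was not tested. Hcrt, the orexin precursor of the lateral hypothalamus, stood at 12.2, 0.181, 4.66 and 0.0514 CPM in Tg replicates 1 to 4 and at 2.66, 15.7, 8.53 and 0.300 CPM in NTg replicates 1 to 4. Gabra6, a GABA-A receptor subunit of cerebellar granule cells, was present at 128 to 178 CPM in Tg and 63.9 to 180 CPM in NTg, so the tissue labelled forebrain carried cerebellar transcripts. All 5 cerebellar markers had a fold change, Tg over NTg, above 1 (median log2 fold change 0.23). All 6 thalamic markers had one below 1 (median -0.37). Hippocampal markers had 4 above and 4 below, and hypothalamic markers 3 above and 7 below. Of all tested genes 49.2% lay above. None of these markers was called.

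None of the 10 neuropeptide genes was called between Tg and NTg, where 0.0139% of all tested genes were. DESeq2 and limma-voom likewise called 0 of the 10, against 1.47% and 0.0139% of all genes tested by those tools. Without Tg replicate 1, edgeR also called 0 of the 10, against 1.43% of all genes tested. At an unadjusted p under 0.05 edgeR placed 1 of the 10, Vip, against 7.36% of all tested genes. In no member did the 4 Tg libraries lie wholly above or below the 4 NTg libraries, a pattern seen in 4.20% of all tested genes. Of the members, 8 had a fold change above 1 and 2 below it, while 49.2% of all tested genes lay above. The median log2 fold change of the members was 0.08, and that of all tested genes was -0.0024.

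**Figure D1:**
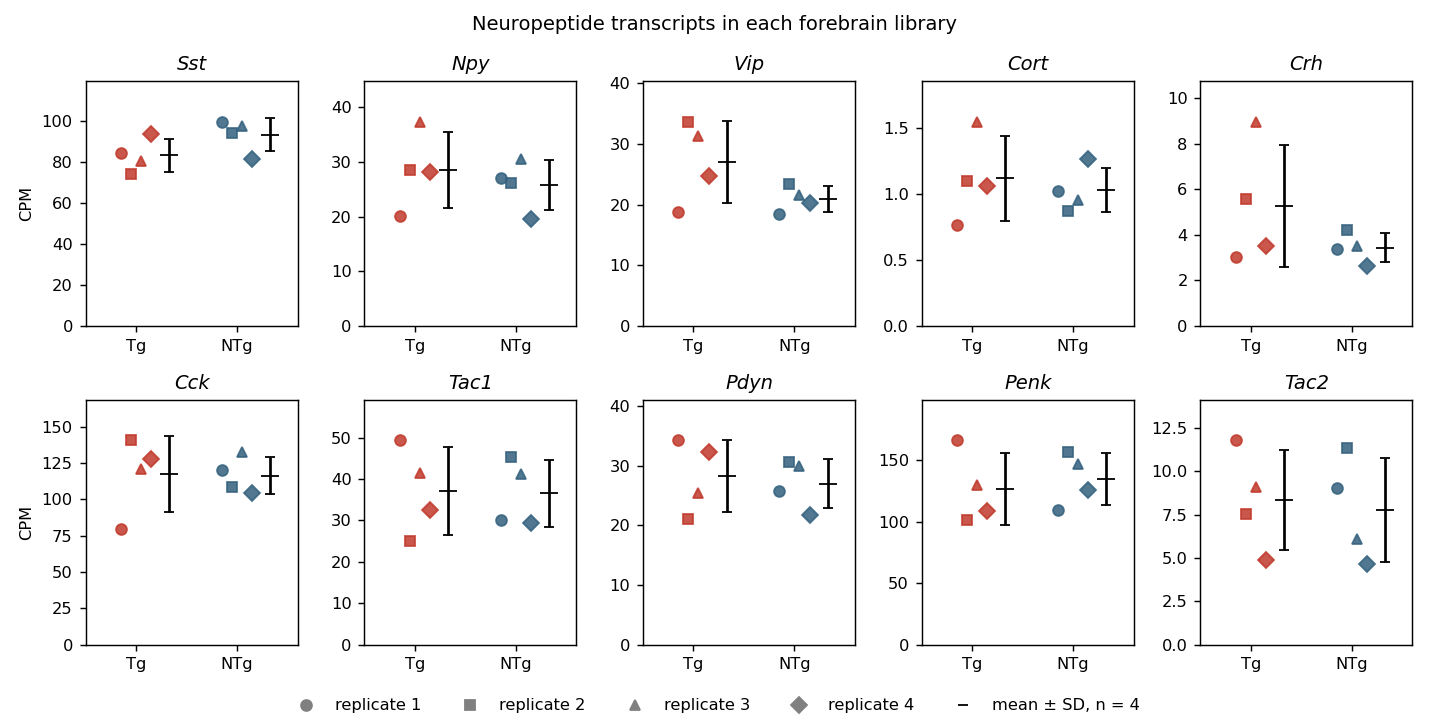
Level of each neuropeptide gene in CPM (y axis, from 0) in the 4 Tg and 4 NTg libraries, with the symbol giving the replicate number and the bar the mean ± SD (n = 4). The groups overlap in all 10 panels, and Crh has its highest library, Tg replicate 3, at 8.96 CPM against 2.65 to 4.21 CPM in NTg.

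Levels were compared between genes after division by exon length, the union of all exons annotated to a gene in GENCODE M21. Which isoforms were expressed was not tested. Sst was the most abundant transcript per length, at 123 ± 12.9 CPM per kilobase over the 8 libraries (SD), followed by Cck at 89.5 ± 14.7, Penk at 79.9 ± 14.7 and Npy at 48.1 ± 10.02 CPM per kilobase. On this scale a gap separated these 4 from the rest: Npy lay above Tac1, at 10.8 ± 2.56 CPM per kilobase, in 8 of 8 libraries, with no overlap of their ranges. Below Tac1 came Pdyn at 9.59 ± 1.68, Vip at 7.06 ± 1.67, Tac2 at 5.85 ± 1.99, Crh at 3.30 ± 1.56 and Cort at 1.59 ± 0.359 CPM per kilobase. Neighbours in this order other than Npy and Tac1 had overlapping ranges, and Tac1 lay above Pdyn in 5 of 8 libraries, as Vip did above Tac2. The order and the gap depend on the lengths used, 566 bases for Npy and 3399 for Tac1. In CPM, without division, Tac1 averaged 37.0 in Tg and 36.5 in NTg, above Npy at 28.6 and 25.9. Penk (126 in Tg and 135 in NTg) and Cck (117 and 116) then stood above Sst (83.4 and 93.5). Shared exons could blur a count in 1 case: 14.3% of the Penk exon bases are also annotated to A830012C17Rik on the other strand, which averaged 0.264 CPM in a library type that does not mark strand.

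**Figure D2:**
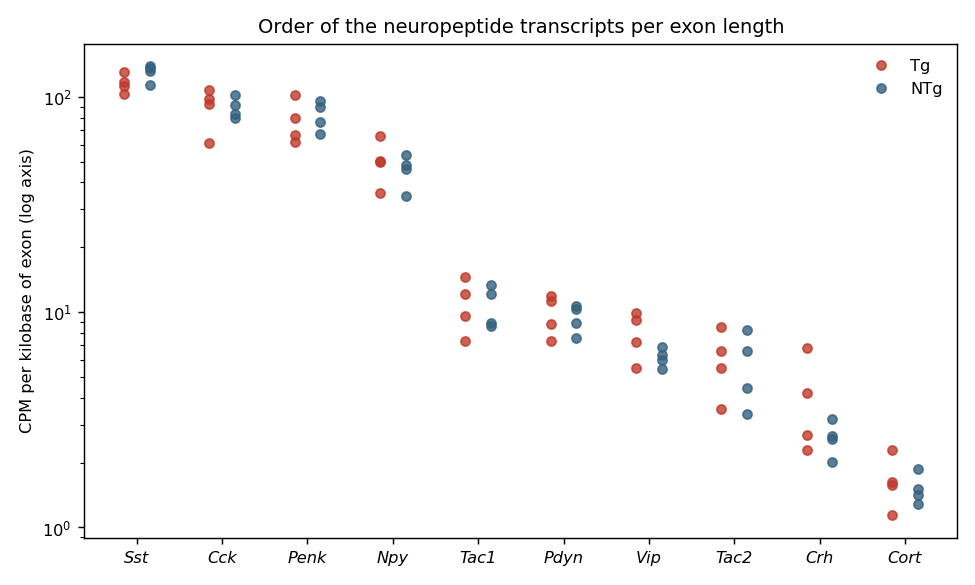
Level of each neuropeptide transcript per kilobase of exon (log axis) in the 4 Tg libraries (left of each pair) and the 4 NTg libraries (right of each pair), ordered by the mean over all 8. Sst, Cck, Penk and Npy lie above the other 6 genes in every library.

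The sequences just upstream of these genes are shown because a cyclic AMP response element, the site bound by the transcription factor CREB, is known from work on the rat Sst promoter, and CREB and its activity-induced targets are described with the other gene lists further on. Of the 10 genes, 8 matched an entry among the RefSeq promoter windows (build GRCm38.p6, 250 bases before to 50 after the annotated start); Penk and Crh did not. On either strand, the full palindrome TGACGTCA was found in Sst alone of these 8, and in 1.79% of 32851 windows. Its core TGACG, which the palindrome contains on both strands, was found in 5 of the 8 (Sst, Vip, Cck, Tac1 and Cort) and in 20.8% of all windows. A match of letters is a description and not a shown binding site. The 100 bases before the start of those 5 genes read as follows, 5′ to 3′ on the gene's own strand, with the matches to the core or to its reverse complement in capitals.
Sst, chr16:23890845-23890944, minus strand: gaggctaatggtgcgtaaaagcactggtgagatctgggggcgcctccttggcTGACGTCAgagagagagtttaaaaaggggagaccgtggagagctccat
Vip, chr10:5639118-5639217, plus strand: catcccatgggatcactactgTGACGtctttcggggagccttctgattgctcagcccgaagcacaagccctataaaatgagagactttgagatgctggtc
Cck, chr9:121495695-121495794, minus strand: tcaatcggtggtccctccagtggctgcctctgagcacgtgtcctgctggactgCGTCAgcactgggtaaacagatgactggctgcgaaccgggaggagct
Tac1, chr6:7554961-7555060, plus strand: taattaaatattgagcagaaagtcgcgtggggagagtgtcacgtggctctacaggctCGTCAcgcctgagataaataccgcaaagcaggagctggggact
Cort, chr4:149126764-149126863, minus strand: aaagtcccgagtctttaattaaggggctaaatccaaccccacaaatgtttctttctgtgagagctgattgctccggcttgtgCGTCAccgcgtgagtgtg
The match lay 48 bases before the start in Sst, 79 in Vip, 47 in Cck, 43 in Tac1 and 18 in Cort, counted to the first matching base. Tac1 held another, 197 bases before the start and outside the stretch shown.

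Among the interneuron peptides, Sst was the steadiest and Vip the member nearest to a genotype difference. Sst, which encodes an inhibitory peptide of dendrite-targeting interneurons, had 84.6, 74.3, 80.6 and 94.0 CPM in Tg replicates 1 to 4 and 99.8, 94.5, 97.9 and 81.8 CPM in NTg replicates 1 to 4. Its lowest pair of libraries were Tg and its highest 3 were NTg, with the other Tg and NTg libraries interleaved. The log2 fold change of Sst, Tg over NTg, was -0.17 (SE 0.08, 95% interval -0.35 to 0.02, edgeR adjusted p = 0.728). Its standard deviation of log2 CPM over the 8 libraries was 0.154, against a median of 0.155 over all tested genes.

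Vip, the peptide of interneurons that inhibit other interneurons, had 18.7, 33.6, 31.3 and 24.7 CPM in Tg replicates 1 to 4 and 18.5, 23.4, 21.6 and 20.3 CPM in NTg replicates 1 to 4. Tg replicates 2, 3 and 4 lay above every NTg library, and Tg replicate 1 lay among them. The log2 fold change of Vip was 0.37 (SE 0.16, 95% interval 0.0054 to 0.74), with an unadjusted p of 0.0473 and an edgeR adjusted p of 0.671. Without Tg replicate 1, the library that stood apart, the log2 fold change was 0.51 and the adjusted p 0.0789. It was 0.25 (adjusted p = 0.974) without Tg replicate 2 and 0.29 (adjusted p = 0.737) without Tg replicate 3.

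Npy, whose peptide dampens excitatory transmission, had 20.2, 28.5, 37.4 and 28.2 CPM in Tg replicates 1 to 4 and 27.2, 26.2, 30.5 and 19.6 CPM in NTg replicates 1 to 4. The lowest and the highest Tg library bracketed 3 of the 4 NTg libraries (log2 fold change 0.14, SE 0.18, 95% interval -0.26 to 0.55, edgeR adjusted p = 0.944). Its log2 fold change was 0.28 without Tg replicate 1 and -0.01 without Tg replicate 3, so its sign rested on single libraries.

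Crh, the stress peptide that is also made by cortical interneurons, was scarce and the most variable member. It had 3.02, 5.56, 8.96 and 3.53 CPM in Tg replicates 1 to 4, from 200, 338, 521 and 206 counts, and 3.40, 4.21, 3.52 and 2.65 CPM in NTg replicates 1 to 4. Tg replicates 2 and 3 lay above the NTg range and the other Tg libraries within it. The 10 tested hypothalamic markers had a mean log2 level, relative to the NTg mean, of 0.56 in Tg replicate 3 and -1.18 in Tg replicate 2. Their highest library was NTg replicate 2, at 0.94. The part of the hypothalamus in the Crh values was not tested. The coefficient of variation of Crh was 51.2% in Tg, where counting error alone gives 6.07%, and 18.6% in NTg, where it gives 7.13%. Crh had the largest fold change of the 10 and the widest interval (log2 fold change 0.61, SE 0.32, 95% interval -0.10 to 1.32, edgeR adjusted p = 0.749). Leaving out Tg replicate 3 took the log2 fold change to 0.23, and leaving out Tg replicate 1 took it to 0.80 (adjusted p = 0.342).

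Cort, a relative of somatostatin that binds the same receptors, stood at 0.770, 1.10, 1.55 and 1.06 CPM in Tg replicates 1 to 4 and at 1.02, 0.874, 0.959 and 1.27 CPM in NTg replicates 1 to 4. These levels rested on 51 to 90 counts in Tg and 54 to 72 counts in NTg. Its coefficient of variation was 28.7% in Tg and 16.5% in NTg, against a counting error of 12.4% and 12.9%, so counting made up more of the spread than in any other member. No genotype difference was detectable for Cort at this depth (log2 fold change 0.12, SE 0.22, 95% interval -0.38 to 0.61, edgeR adjusted p = 0.970).

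Cck, whose peptide is released by basket cells and whose transcript is spread over cortex and hippocampus, had 79.8, 141, 121 and 128 CPM in Tg replicates 1 to 4 and 120, 108, 133 and 104 CPM in NTg replicates 1 to 4. Both the highest and the lowest library were Tg, the lowest being Tg replicate 1. The genotype means lay close together, at 117 ± 26.3 CPM in Tg and 116 ± 12.9 CPM in NTg (SD, n = 4 each; log2 fold change 0.01, SE 0.15, 95% interval -0.33 to 0.36, edgeR adjusted p = 0.998). The log2 fold change of Cck was 0.16 without Tg replicate 1.

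The striatal peptides Tac1, Penk and Pdyn each had both their highest and their lowest library among the Tg samples. Tac1, the precursor of substance P and neurokinin A, had 49.3, 24.9, 41.3 and 32.6 CPM in Tg replicates 1 to 4 and 30.2, 45.3, 41.3 and 29.3 CPM in NTg replicates 1 to 4. Tg replicate 1 was its highest library and Tg replicate 2 its lowest, so the Tg libraries spanned the whole NTg range. The log2 fold change of Tac1 was 0.02 (SE 0.21, 95% interval -0.45 to 0.49, edgeR adjusted p = 0.997).

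Penk, the precursor of the enkephalins, which act on delta and mu opioid receptors, had 166, 101, 130 and 109 CPM in Tg replicates 1 to 4 and 110, 157, 147 and 125 CPM in NTg replicates 1 to 4. It too was highest in Tg replicate 1 and lowest in Tg replicate 2 (log2 fold change -0.09, SE 0.16, 95% interval -0.45 to 0.27, edgeR adjusted p = 0.967). Without Tg replicate 1 its log2 fold change was -0.25 with an adjusted p of 0.607.

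Pdyn, the precursor of the dynorphins, which act on the kappa opioid receptor, had 34.3, 21.2, 25.5 and 32.4 CPM in Tg replicates 1 to 4 and 25.7, 30.7, 29.9 and 21.8 CPM in NTg replicates 1 to 4. Its extremes were again Tg replicates 1 and 2, and the groups overlapped (log2 fold change 0.07, SE 0.16, 95% interval -0.29 to 0.42, edgeR adjusted p = 0.976).

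Tac2, the precursor of neurokinin B, which is made in several forebrain regions including the hypothalamus and habenula, had 11.8, 7.56, 9.09 and 4.90 CPM in Tg replicates 1 to 4 and 9.05, 11.3, 6.11 and 4.62 CPM in NTg replicates 1 to 4. The lowest libraries were NTg replicate 4 and Tg replicate 4, a pair in which the hypothalamic Hcrt was also below 0.5 CPM, as it was in Tg replicate 2, where Tac2 was in the middle of its range. The part of the hypothalamus in the Tac2 values was not tested. The log2 fold change of Tac2 was 0.10 (SE 0.31, 95% interval -0.59 to 0.79, edgeR adjusted p = 0.985).

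**Figure D3:**
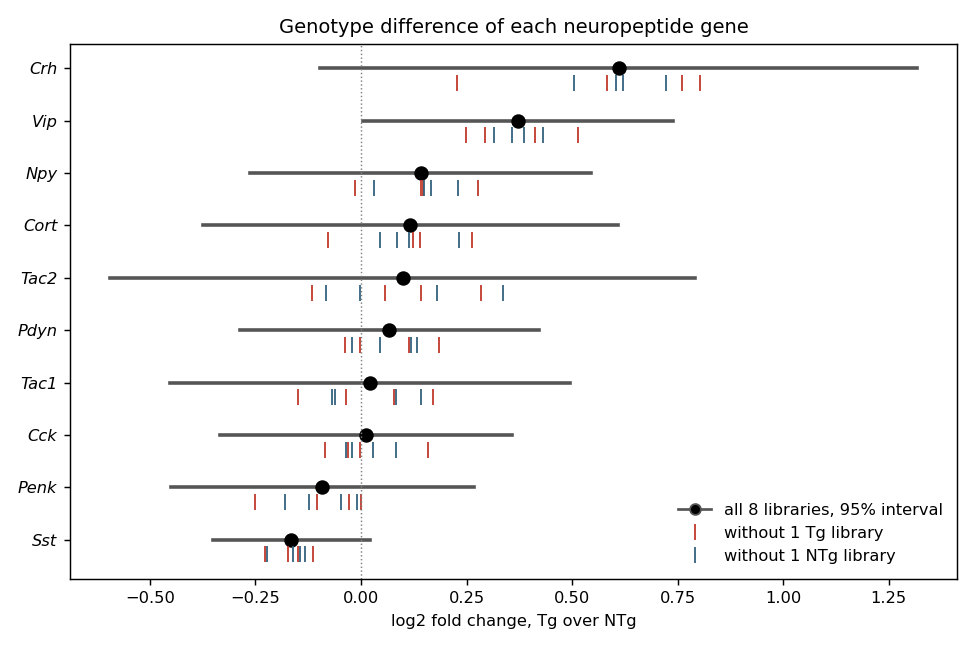
Log2 fold change of each neuropeptide gene, Tg over NTg (x axis), as the estimate from all 8 libraries with its 95% interval (black and grey) and as the estimates with 1 library left out (ticks, red for a Tg and blue for an NTg library). The interval of Vip starts at 0.0054 and the other 9 include 0, while the left-out estimates of Tac1 run between -0.15 and 0.17.

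Counting error was a small part of the spread for most members. It came to 1.13% to 7.13% of the mean within a genotype for the 9 genes other than Cort, while the observed coefficients of variation of those genes were 8.69% to 51.2%. Across the 8 libraries Crh varied more than 93.4% of all tested genes, Tac2 more than 91.6% and Tac1 more than 79.8%, by the standard deviation of log2 CPM. Npy, Vip, Cck, Penk, Pdyn and Cort lay between 68.7% and 77.3% on the same scale, and Sst at 49.9%.

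Regional marker lists varied between the same libraries. For each list, the mean log2 CPM of its members was set relative to the NTg mean. The 5 markers of indirect-pathway striatal neurons lay at 0.16, -0.42, -0.08 and -0.18 in Tg replicates 1 to 4 and at -0.28, 0.34, 0.16 and -0.22 in NTg replicates 1 to 4. The 5 markers of direct-pathway neurons, the cells of Tac1 and Pdyn, lay at 0.12, -0.22, -0.02 and -0.09 in Tg replicates 1 to 4 and at -0.05, 0.17, 0.13 and -0.25 in NTg replicates 1 to 4. Tg replicate 2, lowest for Tac1, Penk and Pdyn, was thus lowest for the indirect list, while NTg replicate 4 was lowest for the direct list with Tg replicate 2 next. Cortical and hippocampal glutamatergic markers, 10 genes, lay at -0.51, 0.12, 0.01 and 0.08 in Tg replicates 1 to 4 and at 0.23, -0.11, 0.01 and -0.13 in NTg replicates 1 to 4. In Tg replicate 1, lowest for those markers, Cck and Cort were lowest and Npy, Vip and Crh were each second lowest of the 8. Its most abundant genes were the kinase gene Camk2a, at 1387 ± 185 CPM in Tg and 1449 ± 153 CPM in NTg (SD, n = 4 each), Slc17a7, at 625 ± 119 CPM in Tg and 623 ± 58.3 CPM in NTg, and Cux2, at 54.2 ± 9.39 CPM in Tg and 55.2 ± 3.47 CPM in NTg. The mean of the 17 interneuron markers varied less, between -0.07 and 0.04 in Tg and between -0.08 and 0.08 in NTg, but single genes in it moved in opposite directions. Lamp5 was at 61.6, 119, 132 and 102 CPM in Tg replicates 1 to 4, and Gad2 was at 323, 230, 247 and 202 CPM. In NTg replicates 1 to 4 Lamp5 was at 94.6, 115, 93.2 and 94.4 CPM, and Gad2 at 266, 297, 282 and 251 CPM. None of these markers was called or was at 0 in any library; their summed level was 64.5 to 101 CPM in Tg and 73.7 to 106 CPM in NTg for the indirect pathway, 101 to 115 CPM in Tg and 92.3 to 112 CPM in NTg for the direct pathway, 1779 to 2505 CPM in Tg and 2079 to 2534 CPM in NTg for the glutamatergic list, and 1398 to 1676 CPM in Tg and 1538 to 1734 CPM in NTg for interneurons. The part of the regional make-up in each member's value was not tested, and in whole tissue fewer cells of a type and less RNA per cell cannot be told apart.

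**Figure D4:**
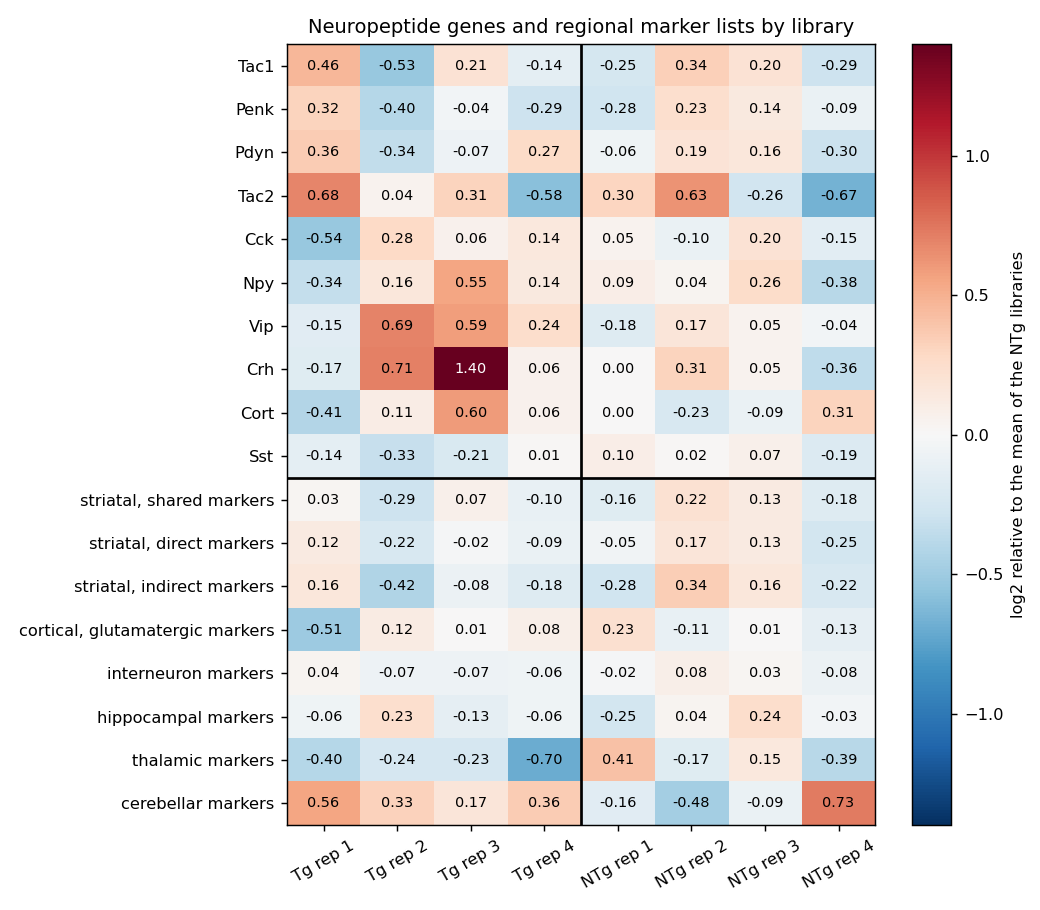
Log2 level of each neuropeptide gene (above the line) and mean log2 level of regional marker lists (below the line) in each library, with 0 at the NTg average and Tg libraries left of NTg. Tac1, Penk and Pdyn are lowest in Tg replicate 2, where indirect-pathway markers are at -0.42 and direct-pathway markers at -0.22 (lowest in NTg replicate 4, at -0.25), and Cck is lowest in Tg replicate 1, where cortical glutamatergic markers are at -0.51.

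Each peptide gene was also set against a partner gene, as a ratio of CPM within each library. The partners Gad1 and Slc17a7 mark wide classes of GABAergic and glutamatergic cells in several regions, not only the cells that carry the peptide. The part of such other cells in the ratios was not tested. Penk over Adora2a, the adenosine receptor of indirect-pathway neurons, averaged 5.15 ± 0.530 in Tg and 4.96 ± 0.242 in NTg (SD, n = 4 each). Its coefficient of variation over the 8 libraries was 7.79%, against 18.4% for Penk itself. Tac1 over Drd1, the dopamine receptor of direct-pathway neurons, averaged 1.45 ± 0.195 in Tg and 1.42 ± 0.0590 in NTg, with 9.36% variation against 23.7% for Tac1. Pdyn over Drd1 averaged 1.12 ± 0.137 in Tg and 1.07 ± 0.125 in NTg, with 11.4% against 17.5%. Cck over Slc17a7, a vesicular glutamate transporter of cortex and other regions, averaged 0.187 ± 0.0225 in Tg and 0.187 ± 0.0121 in NTg, with 8.96% against 16.4%. In these 4 pairs the ratio varied less between libraries than the peptide gene did.

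Against Gad1, the enzyme that makes GABA, the ratio varied more over the 8 libraries than the peptide gene for Sst (18.4% against 10.5%), Npy (24.0% against 20.8%) and Vip (28.8% against 23.6%), and slightly less for Crh (44.97% against 47.3%) and Tac2 (30.1% against 34.0%). Vip over Gad1 was 0.0384, 0.0735, 0.0611 and 0.0671 in Tg replicates 1 to 4 and 0.0403, 0.0415, 0.0386 and 0.0418 in NTg replicates 1 to 4. The NTg ratios lay within a narrow range, Tg replicates 2 to 4 lay above it and Tg replicate 1 just below it (log2 difference 0.52, exact two-sided permutation p = 0.143). Crh over Gad1 averaged 0.0114 ± 0.00476 in Tg and 0.00666 ± 0.000968 in NTg (log2 difference 0.68, exact permutation p = 0.114), and Npy over Gad1 averaged 0.0633 ± 0.0158 in Tg and 0.0502 ± 0.00842 in NTg (0.31, exact permutation p = 0.229). Sst over Gad1 averaged 0.187 ± 0.0460 in Tg and 0.182 ± 0.0238 in NTg (log2 difference 0.02, exact permutation p = 0.943). Tac2 over Gad1 differed by 0.30 on the log2 scale (exact permutation p = 0.371) and Cort over Sst by 0.26 (exact permutation p = 0.400). Over the 10 ratios, the Benjamini-Hochberg adjusted p of these exact permutation tests was 0.714 or more, where the smallest unadjusted p that 4 against 4 libraries allow is 0.0286. Gad1 itself averaged 456 ± 63.1 CPM in Tg and 516 ± 52.7 CPM in NTg (log2 fold change -0.18, edgeR adjusted p = 0.824), so part of each ratio comes from its denominator.

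**Figure D5:**
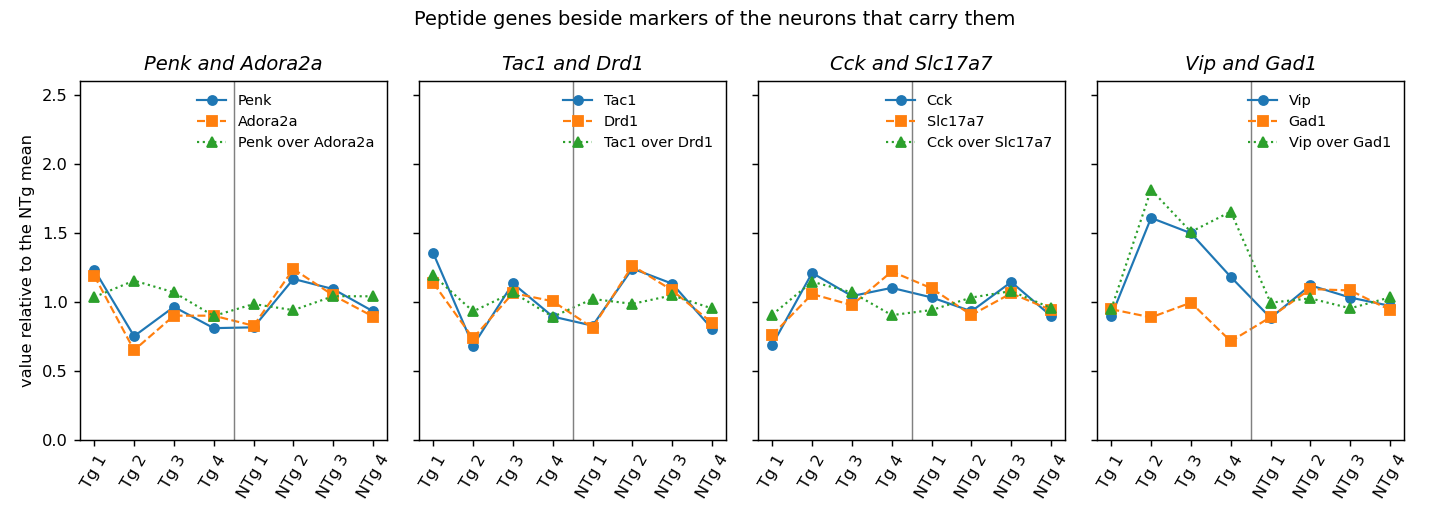
Peptide gene, partner gene and their ratio in each library (Tg left of NTg), each divided by its own NTg mean (y axis, no unit). Penk with Adora2a, Tac1 with Drd1 and Cck with Slc17a7 vary together, while Vip is high and Gad1 is not in Tg replicates 2 to 4.

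Of the 45 pairs among the 10 genes, none had a correlation of log2 CPM over the 8 libraries that passed Benjamini-Hochberg adjustment. The highest was Tac1 with Penk (Pearson r = 0.92, exact permutation p = 0.00198, adjusted 0.0893; Spearman rho = 0.88, exact permutation p = 0.00724, adjusted 0.241; n = 8), and r was 0.83 without Tg replicates 1 and 2, the libraries farthest from the Tac1 median. Tac1 with Pdyn gave r = 0.77 (exact permutation p = 0.0315, adjusted 0.354) and rho = 0.76 (exact permutation p = 0.0368, adjusted 0.276), and Penk with Pdyn gave r = 0.61 (exact permutation p = 0.115, adjusted 0.437) and rho = 0.57 (exact permutation p = 0.151, adjusted 0.400). Without Tg replicates 1 and 2, r was 0.50 for Tac1 with Pdyn and 0.20 for Penk with Pdyn. Vip with Crh gave r = 0.84 (exact permutation p = 0.00871, adjusted 0.185) and rho = 0.86 (exact permutation p = 0.0107, adjusted 0.241), and r fell to 0.57 without Tg replicates 2 and 3. Npy with Crh gave r = 0.82 (exact permutation p = 0.0124, adjusted 0.185) and rho = 0.76 (exact permutation p = 0.0368, adjusted 0.276), with r = 0.79 without NTg replicate 4 and Tg replicate 1. Sst and Cort, which share receptors, gave r = -0.43 (exact permutation p = 0.294, adjusted 0.491) and rho = -0.60 (exact permutation p = 0.132, adjusted 0.372), with r = -0.54 without Tg replicate 2 and NTg replicate 1. With 4 libraries in each genotype these relations were not tested within genotypes.

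Among 10228 tested genes of at least 10 CPM on average, excluding predicted and clone symbols, those most like each member over the 8 libraries were named by Pearson r of log2 CPM, as a description. For Penk they were Klhl13 (0.99) and Rasgrp2 (0.96), for Tac1 Mesd (0.98) and Rgs9 (0.96), and for Pdyn Man1b1 (0.95) and Snrnp25 (0.94). For Sst they were Wdtc1 (0.98) and Elavl3 (0.97), for Vip Thbs2 (0.98) and Dbx2 (0.96), and for Cck Ankrd33b (0.98) and Usf3 (0.98). Npy was most like Cdkn1a and Ago4 (0.94 each), Crh was most like Prkg2 (0.96) and Abca9 (0.93), Cort was most like Prkci (0.96) and Plpp6 (0.95), and Tac2 was most like Upf1 (0.96) and Tab2 (0.92). Values this high are the top of a long scan over 8 shared libraries.

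The receptors of these peptides were not called in either direction. Of 23 receptor and binding-protein genes 22 were tested, 4 had a fold change above 1 and 18 below it, and their median log2 fold change was -0.10, against -0.0024 for all tested genes. Adcyap1r1, the receptor of the Vip relative PACAP, averaged 193 ± 19.8 CPM in Tg and 201 ± 9.999 CPM in NTg (SD, n = 4 each), Crhr1, the main Crh receptor of cortex, averaged 28.5 ± 1.26 CPM in Tg and 26.1 ± 2.66 CPM in NTg, and Cckbr, the brain Cck receptor, averaged 24.9 ± 3.74 CPM in Tg and 29.6 ± 4.24 CPM in NTg. The smallest p-values belonged to Sstr3, the somatostatin receptor of neuronal cilia, and to Crhr2. Sstr3 averaged 16.1 ± 0.535 CPM in Tg and 18.0 ± 1.33 CPM in NTg (log2 fold change -0.16, SE 0.06, edgeR adjusted p = 0.561), and its Tg libraries all lay below the NTg libraries, as in 1.58% of all tested genes. Crhr2 averaged 1.64 ± 0.527 CPM in Tg and 2.28 ± 0.122 CPM in NTg (log2 fold change -0.47, SE 0.21, edgeR adjusted p = 0.657). The 5 choroid plexus markers measured beside them had a median log2 fold change of -0.93, a summed level of 705 to 1091 CPM in Tg and 1154 to 1561 CPM in NTg, none at 0 and 0 of 5 called, and their part in the Crhr2 value was not tested.

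Genes that cut and finish the precursors were led by Cpe, the carboxypeptidase that trims the cut peptides, at 1582 ± 98.7 CPM in Tg and 1654 ± 63.0 CPM in NTg. The convertase Pcsk2 averaged 245 ± 22.2 CPM in Tg and 269 ± 22.0 CPM in NTg, and its chaperone Scg5 averaged 311 ± 103 CPM in Tg and 378 ± 79.8 CPM in NTg. The convertase inhibitor Pcsk1n averaged 305 ± 34.3 CPM in Tg and 316 ± 43.2 CPM in NTg. Over the 10 genes of this list the median log2 fold change was -0.06, with 2 above 0, 8 below it and 0 called. The member with the smallest p was Ctsl, cathepsin L, which can process precursors in vesicles but is chiefly a lysosomal protease of many cell types, microglia included. Ctsl averaged 126 ± 11.8 CPM in Tg and 97.0 ± 2.86 CPM in NTg, and its Tg libraries all lay above the NTg libraries, as in 2.62% of all tested genes (log2 fold change 0.38, SE 0.07, edgeR adjusted p = 0.107), and it was called without Tg replicate 1, with no low-count filter and by DESeq2. The 6 microglial markers measured beside it all had higher means in Tg, with a median log2 fold change of 0.64, 0 called, a summed level of 309 to 478 CPM in Tg and 234 to 296 CPM in NTg and none at 0. All 6 had an unadjusted edgeR p under 0.05, against 7.36% of all tested genes. In 4 the Tg libraries all lay above the NTg libraries. Without Tg replicate 1, edgeR called 4 of these 6 markers, against 1.43% of all genes tested. Their part in the Ctsl value was not tested.

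Peptidases and dense-core vesicle genes also gave no calls. Of 12 genes listed for the breakdown of released peptides 5 lay above 0 and 7 below it, with a median log2 fold change of -0.01. The most abundant was Dpp6, at 247 ± 16.2 CPM in Tg and 260 ± 12.7 CPM in NTg. Dpp6 is a relative of the dipeptidyl peptidases and not itself an active peptidase. Next came the insulin-degrading enzyme Ide at 56.7 ± 4.40 CPM in Tg and 55.0 ± 1.67 CPM in NTg, and Ece1 at 51.6 ± 2.76 CPM in Tg and 51.3 ± 4.11 CPM in NTg. Of 13 genes for dense-core vesicle cargo and release 3 lay above 0 and 10 below it, with a median log2 fold change of -0.05. The vesicle GTPase Rab3a averaged 397 ± 9.99 CPM in Tg and 409 ± 29.7 CPM in NTg, its effector Rph3a averaged 388 ± 14.9 CPM in Tg and 393 ± 40.1 CPM in NTg, and chromogranin B (Chgb) averaged 373 ± 21.4 CPM in Tg and 404 ± 12.3 CPM in NTg. The smallest p-value of each list belonged to a gene whose Tg libraries all lay below the NTg libraries, as in 1.58% of all tested genes. Both genes were named after their values were seen. Ace, the angiotensin-converting enzyme, averaged 19.8 ± 2.56 CPM in Tg and 24.5 ± 0.668 CPM in NTg (log2 fold change -0.31, SE 0.09, edgeR adjusted p = 0.301), and Chga, chromogranin A, averaged 160 ± 7.03 CPM in Tg and 177 ± 6.02 CPM in NTg (log2 fold change -0.15, SE 0.05, edgeR adjusted p = 0.371).

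A list of 21 further neuropeptide and secreted signal genes, 20 of them tested, had 10 members above 0 and 10 below it, a median log2 fold change of 0.0038 and 0 called. It included Nxph1, a neurexophilin of interneurons, at 41.1 ± 4.38 CPM in Tg and 42.7 ± 2.59 CPM in NTg, Bdnf at 19.6 ± 4.67 CPM in Tg and 21.4 ± 3.37 CPM in NTg, and Adcyap1, which encodes PACAP, at 16.8 ± 3.99 CPM in Tg and 20.2 ± 1.09 CPM in NTg. The smallest p-values were those of Pnoc, the nociceptin precursor, at 6.87 ± 1.39 CPM in Tg and 8.85 ± 0.906 CPM in NTg (log2 fold change -0.36, SE 0.14, edgeR adjusted p = 0.555), and of Npb, neuropeptide B, at 0.268 ± 0.0967 CPM in Tg and 0.408 ± 0.0639 CPM in NTg (log2 fold change -0.61, SE 0.29, edgeR adjusted p = 0.712). CREB, its partners and activity-induced genes, 14 in all, had 5 above 0, 9 below it and 0 called, with a median log2 fold change of -0.04. Of these Crtc1, a CREB coactivator, averaged 131 ± 16.5 CPM in Tg and 136 ± 9.66 CPM in NTg, Egr1 averaged 106 ± 31.7 CPM in Tg and 122 ± 30.9 CPM in NTg, and Arc averaged 82.6 ± 28.9 CPM in Tg and 77.3 ± 22.4 CPM in NTg.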

How the data were processed

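The authors deposited raw read counts per Ensembl gene, unnormalized, for 8 libraries; 0 columns belonged to other series. Per the labels' protocols, TruSeq RNA version 2 libraries, which do not mark strand, were read for 75 bases from both ends (NextSeq 500). The submitters' processing notes name GRCm39 as the build, the aligner STAR and the package DESeq2; the counting tool, the annotation and tool versions were not given in the sources used here. All libraries carry the value F in a field labelled batch, whose meaning the labels do not explain, so no split by it could be made. Symbols matched 52073 of 56748 identifiers (99.6% of counts). Exon lengths and overlaps came from GENCODE M21, an older build (GRCm38), which gave no coordinates for the counts.

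Genes kept by filterByExpr (minimum count 10, minimum total 15) were tested with edgeR 4.0.16 (limma 3.58.1, DESeq2 1.42.0, R 4.3.3), quasi-likelihood F test with TMM factors, Benjamini-Hochberg adjusted over all 21588 genes at 0.05. SE is the log2 fold change divided by the square root of F. Log2 CPM used a prior count of 2. Depth, 57129090 to 65242741 counts, leaves a counting error of 12.9% at most for a member; it covers counting alone. The fit was checked on simulated data. Of genes changed 1.5-fold there, edgeR recovered 65.67% and DESeq2 71.64%. Among the genes simulated as unchanged, edgeR made 3 false calls and DESeq2 made 50. The changed genes were drawn at random from all tested genes, and counts were simulated independently, without shifts of tissue make-up shared between genes. Most members varied more than the median tested gene, so the shares recovered do not give what could be detected for the members. No pair of libraries of a genotype agreed within sampling noise (chi-square per degree of freedom 11.0 or more).

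The members and gene lists were chosen with earlier results of these data known. Named genes were the 10 members, ratio partners, App, the 3 most abundant genes of the peptide-system and CREB lists, the 2 with the smallest p of the receptor, processing and other peptide lists, and the 2 genes most like each member (for the regional and cell type lists, the level of the list stands in place of most of its abundant genes). Hcrt, Gabra6, Gfap, Hbb-bs, Lamp5, Ace and Chga were named after their values were seen. Alternatives were DESeq2, limma-voom, other scaling factors, other filters, robust dispersion, a replicate block and each library left out; a striatal marker covariate was added after seeing the data.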

Additional observations from a re-analysis of the deposited data

Results flagged for a closer look

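Among 25 quantities examined for a library far from the other 3 of its genotype (the 10 neuropeptide genes, App, 4 partner genes and 10 ratios), 4 of 50 groups were singled out by Dixon's 95% criterion for 4 samples, and chance singles out about 1 group in 20. None of the 10 neuropeptide genes was among them. App was lowest in Tg replicate 1, at 2532 CPM, with the next Tg library at 2934 CPM. Sst over Gad1 was 0.255 in Tg replicate 4, where the next Tg library was at 0.173, and 0.218 in NTg replicate 1, where the next NTg library was at 0.175. Cort over Sst was 0.0155 in NTg replicate 4, with the next NTg library at 0.0103.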

How the results depend on the processing

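The number of neuropeptide genes called was 0 under all 18 alternatives, and the lowest adjusted p, 0.0789 for Vip, came without Tg replicate 1. Over all genes, 3 calls became 345 with DESeq2, 127 with no low-count filter and 1 with the replicate block, and ranged between 3 and 314 with 1 library left out (the highest without Tg replicate 1; leaving out the same-numbered NTg library gave 16, and Tg replicate 2 gave 9). The processing list had 1 call, Ctsl, with DESeq2 and with no low-count filter, and 0 to 1 with 1 library left out. Of 180 member fold changes under alternatives 159 kept their sign and side of the threshold and 21 changed sign, in 7 members; Sst, Vip and Crh kept theirs. Cck turned to -0.013 with limma-voom, to -0.011 with the replicate block and to -0.028 with the striatal covariate. With 1 library left out, log2 fold changes ranged between -0.086 and 0.16 for Cck, -0.15 and 0.17 for Tac1, -0.12 and 0.34 for Tac2, -0.25 and 0.0011 for Penk, -0.038 and 0.18 for Pdyn, -0.014 and 0.28 for Npy, -0.078 and 0.26 for Cort, -0.23 and -0.11 for Sst, 0.25 and 0.51 for Vip, and 0.23 and 0.80 for Crh. Log2 differences of ratios then ranged between -0.14 and 0.10 for Sst over Gad1, -0.064 and 0.051 for Cck over Slc17a7, -0.059 and 0.081 for Tac1 over Drd1, and -0.0042 and 0.12 for Penk over Adora2a. Same-numbered libraries correlated at -0.03 to 0.16 in their deviations from the genotype means and 3 of 8 correlated best with their own number, so the numbers were not taken to pair them. Depth limits Cort, which rests on 51 to 90 counts in a library.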
